A study of Homo sapiens with 4 samples.

Results

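The dystrophin-glycoprotein complex genes described here are DMD, UTRN, DAG1, SGCA, SGCB, SGCD, SGCE, SNTB1 and DTNA. They were taken by gene name from the deposited expression table, which held all 9 of them among its 18375 genes. The complex ties the actin cytoskeleton of a muscle cell to the matrix around it. Dystrophin binds actin on the inside and the transmembrane dystroglycan at the membrane, and dystroglycan binds laminin on the outside through a sugar chain built by a series of glycosyltransferases. Sarcoglycans sit beside dystroglycan in the membrane and stabilise it, and syntrophins and dystrobrevin gather signalling proteins underneath. Loss of dystrophin, of any of several sarcoglycans or of the dystroglycan sugar causes muscular dystrophy in people.

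RNA of RD, a human rhabdomyosarcoma cell line labelled fusion negative and wild type, was sequenced after oligo(dT) enrichment. The groups were vincristine-resistant RD cells (n = 2 libraries) and untreated parental RD cells (n = 2 libraries). Vincristine, a plant alkaloid, stops cell division by keeping tubulin from forming a spindle. The resistant line was selected by raising the dose in steps of 10 to 20% over 9 to 12 months. Selection began at 1 to 1.5 nM, a dose lethal to 80 to 90% of cells, and ended once the half-maximal inhibitory concentration was at least 100-fold higher. Whether the replicates came from independent cultures or selections is not in the labels, so the p-values rest on a spread between libraries that may be technical.

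Over the genes of the table the resistant libraries held 58861281 and 67270948 reads and the parental libraries 67690557 and 65818879. Markers of the labelled lineage were abundant, with 6 of 7 muscle markers in the table, DES, MYOD1, MYOG, CHRNA1, MYH3 and PAX7. Their summed normalized counts were 136491 and 140112 in resistant cells and 79012 and 79106 in parental cells. DES and CHRNA1 had the highest counts of these markers in both groups. MYOD1 did not share the rise, with 15213 and 16685 in resistant libraries and 16936 and 16241 in parental libraries. The other 5 were higher in resistant cells, and PAX7 had the largest ratio, at 4456 and 4625 against 375 and 380. Of the markers of other cell types, 5 of 6 fibroblast genes were in the table, with sums of 80311 and 81345 in resistant and 48901 and 48626 in parental cells, mostly from COL1A1. For Schwann or glial cells 3 of 5 markers were present, with sums of 2605 and 2715 in resistant and 4159 and 4264 in parental cells. For endothelial cells 1 of 5 was present, TEK, with 1729 and 1690 in resistant libraries and 188 and 210 in parental libraries. Epithelial markers (4 of 5) summed to 171 and 105 in resistant libraries and 96.7 and 103 in parental libraries, and blood markers (1 of 5) to 29.2 and 21.0 in resistant libraries and 5.80 and 15.9 in parental libraries. The part of these differences in the results that follow was not tested. In bulk RNA, fewer cells of a type and less RNA per cell cannot be told apart.

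Resistant cells had 2.56 times as much DAG1 RNA and 3.97-fold less SGCA RNA than parental cells, and 6 of the other 7 genes changed by smaller amounts in both directions. DMD and SGCD were also higher, and DTNA, SNTB1, UTRN and SGCB were lower. SGCE did not pass the test. With limma on log2(normalized count + 1) and a Benjamini-Hochberg adjusted p below 0.05, 3 of the 9 genes were higher and 5 lower in resistant cells. Of all 18330 tested genes 66.9% were called, 32.7% higher and 34.2% lower, so a call alone was the common outcome. The libraries of the groups did not overlap for any of the 9 genes, which was also true of 82.1% of all tested genes. Changes of 2-fold or more occurred in 2 of the 9 genes and in 15.6% of all tested genes. The median size of change, whatever its direction, was 0.49 on the log2 scale for the 9 genes and 0.36 for all tested genes.

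**Figure D1:**
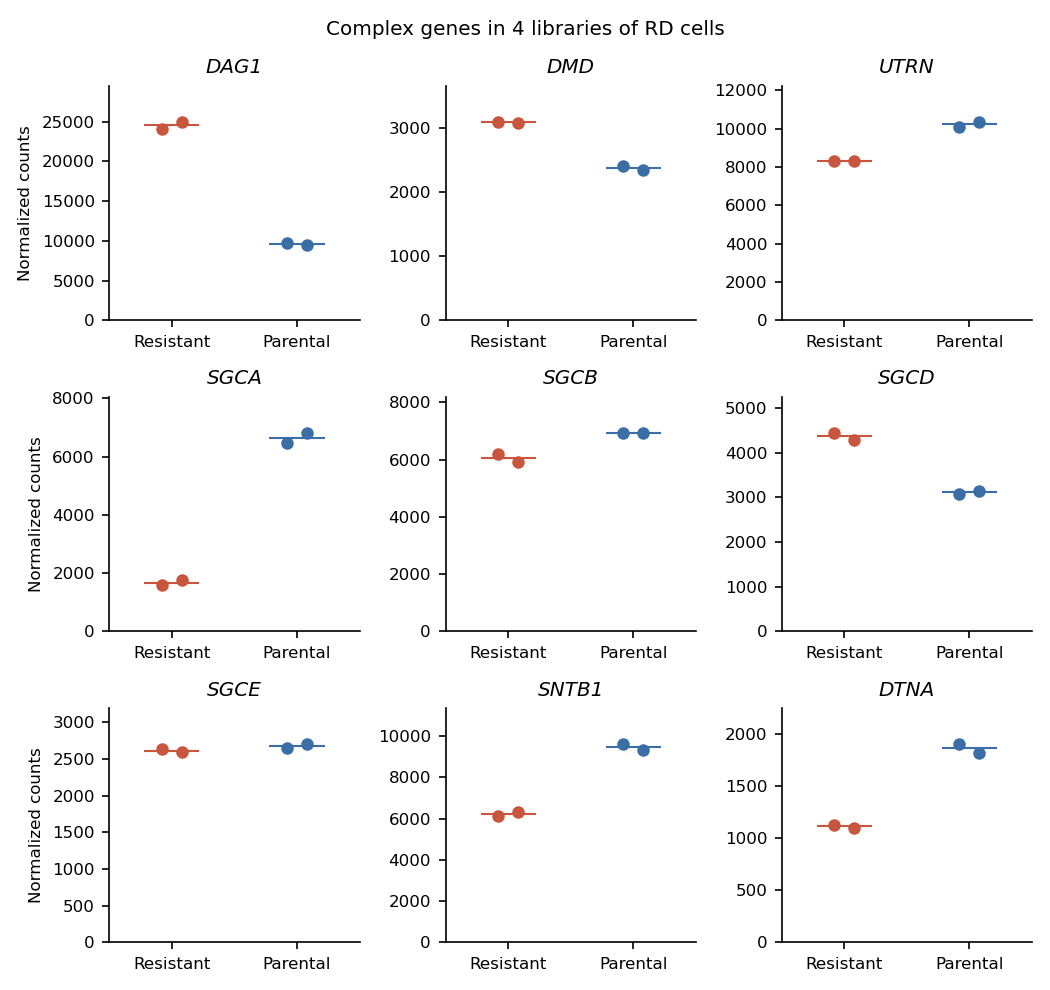
Normalized counts (vertical axes, from 0) of the 9 complex genes in each library, with resistant libraries on the left and parental ones on the right; points are libraries and bars are group means. The resistant points of DAG1 lie at 24108 and 24987, against 9682 and 9518 in parental cells, and those of SGCA at 1592 and 1758, against 6481 and 6817.

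DAG1 encodes dystroglycan, which is cut into an outer laminin-binding part and a transmembrane part. It had 24108 and 24987 normalized counts in resistant libraries and 9682 and 9518 in parental libraries. Its log2 fold change was 1.35 (SE 0.03, limma adjusted p = 1.7e-23). Every resistant library lay far above every parental one, and 1086 of 18330 tested genes had a higher fold change. The gene (ENSG00000173402) lies on chromosome 3 from 49468703 to 49535618 in GRCh38. The median log2 fold change of the 10 measured genes on each side was -0.05, with 4 genes called higher and 8 lower. The nearest genes, NICN1 and BSN, had values of -0.71 and -0.03. Among those 20 neighbours 1 had a higher value than DAG1.

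DMD, the gene of dystrophin, had 3101 and 3082 normalized counts in resistant libraries and 2418 and 2341 in parental libraries. The log2 fold change was 0.38 (SE 0.04, limma adjusted p = 9.9e-09). UTRN encodes utrophin, the dystrophin paralogue that takes its place in embryonic muscle and at the nerve-muscle junction. It had 8297 and 8305 normalized counts in resistant libraries and 10102 and 10355 in parental libraries, a log2 fold change of -0.30 (SE 0.03, limma adjusted p = 3.6e-09). Within each pair of groups the libraries were separate, and the paralogues moved in opposite directions. Per exonic base, the ratio of UTRN to DMD was 3.46 and 3.49 in resistant libraries and 5.41 and 5.73 in parental libraries. UTRN thus stayed the more abundant of the pair in all 4 libraries. An exact two-sided permutation test of this ratio gave p = 0.33, which is the smallest p that 2 against 2 libraries allow.

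DMD lies on chromosome X from 31097677 to 33339441 (ENSG00000198947), and its 32 annotated transcripts start at several promoters. The table has 1 value for the whole gene, so full-length dystrophin and its short forms cannot be told apart. UTRN lies on chromosome 6 from 144285701 to 144853034 (ENSG00000152818). The 20 measured genes around UTRN had a median log2 fold change of -0.29, close to the value of UTRN itself, and 9 of them were called lower and 3 higher. The nearest, STX11 at 0.04 and EPM2A at 0.19, were not called in either direction. Around DMD the median was 0.12, with 9 genes called higher and 8 lower. The nearest genes there were TAB3 at -0.30 and TBCAP1 at -0.65, and TBCAP1 was not called. The part of a regional shift in the value of UTRN was not tested.

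Promoter sequences from RefSeq on GRCh38.p14, 250 bases before to 50 after a start, were at hand for 6 of the 9 genes in 20 windows, some of which overlap. Those of DAG1, the gene that rose most, and of the paralogues DMD and UTRN, which moved in opposite directions, are printed 5′ to 3′ on the gene's strand. Capitals mark the E-box CANNTG, the element read by the MYOD family, and the GC box GGGCGG or its reverse complement CCGCCC. The E-box search covers both strands because the motif is its own reverse complement, and no E-box overlaps a GC box in these windows. For DMD, which has 7 windows, the one at the start of the full-length muscle form is shown, and for DAG1 and UTRN the more upstream of their windows.
DAG1, chr3:49469882-49470181, + strand: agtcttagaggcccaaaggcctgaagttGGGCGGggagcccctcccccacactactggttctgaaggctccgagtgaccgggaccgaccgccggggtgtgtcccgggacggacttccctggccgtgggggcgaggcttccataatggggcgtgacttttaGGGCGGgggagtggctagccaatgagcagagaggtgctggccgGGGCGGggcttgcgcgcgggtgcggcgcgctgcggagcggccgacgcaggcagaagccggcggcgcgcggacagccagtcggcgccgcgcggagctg
DMD, chrX:33211500-33211799, - strand: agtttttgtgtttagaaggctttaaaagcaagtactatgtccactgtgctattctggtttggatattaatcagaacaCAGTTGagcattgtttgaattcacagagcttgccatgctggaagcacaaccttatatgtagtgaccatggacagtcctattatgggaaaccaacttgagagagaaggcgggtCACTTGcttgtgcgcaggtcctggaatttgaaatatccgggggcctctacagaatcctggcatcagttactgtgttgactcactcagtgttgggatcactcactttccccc
UTRN, chr6:144285085-144285384, + strand: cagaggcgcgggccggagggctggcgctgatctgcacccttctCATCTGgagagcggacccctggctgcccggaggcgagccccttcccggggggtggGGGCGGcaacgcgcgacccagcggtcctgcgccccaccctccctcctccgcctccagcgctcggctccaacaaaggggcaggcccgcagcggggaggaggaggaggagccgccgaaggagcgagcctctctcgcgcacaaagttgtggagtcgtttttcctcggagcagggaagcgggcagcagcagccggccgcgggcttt

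The DAG1 window held 3 GC boxes and no E-box, with a GC content of 71.7% and 34 CpG sites. In contrast, the DMD window held 2 E-boxes and no GC box, with a GC content of 44.7% and 3 CpG sites. The UTRN window had 1 E-box, 1 GC box, a GC content of 72.3% and 30 CpG sites. Of the 20 windows of these genes 65.0% held an E-box, against 68.7% of 35116 windows of the same length in the RefSeq table. For the GC box the shares were 30.0% and 45.0%. Most of the 20 windows belong to DMD and DTNA, so the shares mostly describe the starts of these genes. The motif counts are matches of letters in a window and show no binding.

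The sarcoglycans split. SGCA encodes alpha-sarcoglycan, the subunit of skeletal and heart muscle whose loss causes a limb-girdle muscular dystrophy. It had 1592 and 1758 normalized counts in resistant libraries and 6481 and 6817 in parental libraries, a log2 fold change of -1.99 (SE 0.05, limma adjusted p = 2.6e-23). Of all tested genes, 317 had a lower fold change. SGCD, the gene of delta-sarcoglycan, had 4450 and 4296 normalized counts in resistant libraries and 3082 and 3154 in parental libraries, a log2 fold change of 0.49 (SE 0.04, limma adjusted p = 1.7e-11). SGCB, the gene of its partner beta-sarcoglycan, had 6178 and 5913 normalized counts in resistant libraries and 6935 and 6918 in parental libraries, a log2 fold change of -0.20 (SE 0.03, limma adjusted p = 1.6e-05). Its resistant libraries lay below the parental ones by a small margin, whereas those of SGCD lay well above and those of SGCA far below.

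SGCE encodes epsilon-sarcoglycan, the close relative of alpha-sarcoglycan that many tissues use, and is imprinted and linked to myoclonus-dystonia. It had 2631 and 2591 normalized counts in resistant libraries and 2651 and 2708 in parental libraries. The log2 fold change was -0.04 with a 95% interval of -0.12 to 0.05 (limma adjusted p = 0.447). The values of the groups lay close together without overlapping, and the difference did not pass the test. PEG10, the imprinted neighbour on the opposite strand that shares 1.05% of the exonic bases of SGCE, was lower at -0.28 (SE 0.03, limma adjusted p = 4.8e-10). On the other side, CASD1 had a log2 fold change of 0.07.

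The mixture of sarcoglycan RNAs differed between the groups. Shares of reads given here are not corrected for gene length. Of all reads of the 4 sarcoglycan genes SGCA, SGCB, SGCD and SGCE, SGCA took 10.7 and 12.1% in resistant libraries and 33.8 and 34.8% in parental libraries. In normalized counts, not corrected for length, SGCE was 1.65 and 1.47 times SGCA in resistant libraries and 0.409 and 0.397 times in parental libraries. Per exonic base, SGCE was 0.194 and 0.173 times SGCA in resistant libraries and 0.0480 and 0.0466 times in parental libraries. SGCA thus stayed above SGCE per exonic base in every library. The ratio of SGCD to SGCB in normalized counts was 0.720 and 0.727 in resistant libraries and 0.444 and 0.456 in parental libraries. Each of these comparisons gave p = 0.33 in the exact two-sided permutation test, again the smallest possible.

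**Figure D2:**
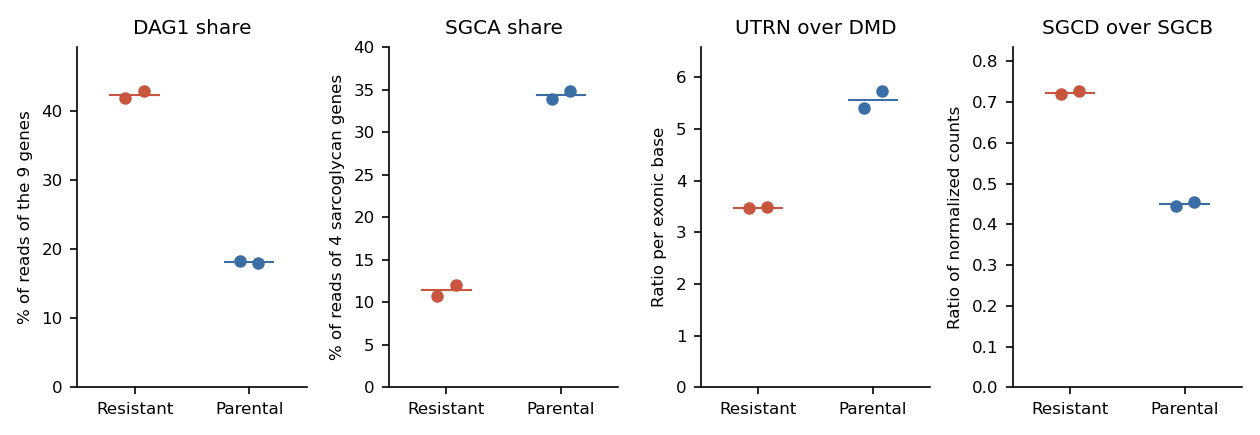
Composition of the complex RNAs by library, resistant on the left and parental on the right, with points for libraries, bars for group means and vertical axes from 0. From left to right: DAG1 as a percentage of reads of the 9 genes, SGCA as a percentage of reads of 4 sarcoglycan genes, the UTRN to DMD ratio per exonic base and the SGCD to SGCB ratio of normalized counts. DAG1 takes 41.8 and 42.8% in resistant libraries against 18.3 and 18.0% in parental libraries.

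On the chromosomes, SGCA (ENSG00000108823) lies on chromosome 17 from 50164214 to 50175931, and its 20 measured neighbours had a median log2 fold change of 0.00. All 20 had a higher value than SGCA, and the nearest, PPP1R9B and HILS1, were at -0.37 and -1.15. An antisense gene, AC015909.3, shares 103 of the 2452 exonic bases of SGCA. SGCB (ENSG00000163069) lies on chromosome 4 from 52020706 to 52038482, and there the neighbours had a median of -0.21, about the value of SGCB itself. These neighbours ran from -3.50 to 2.72, with 10 called lower and 6 higher. The part of a regional shift in the value of SGCB was not tested. LRRC66 at -0.46, which was not called, and USP46 at 0.17 were the nearest measured genes. SGCD (ENSG00000170624) is on chromosome 5 from 155870344 to 156767788, with a neighbour median of -0.07 and with MRPL22 at -0.20 and MED7 at 0.31 beside it. SGCE (ENSG00000127990) is on chromosome 7 from 94524204 to 94656572, with a neighbour median of 0.15.

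SNTB1 and DTNA, whose products lie under the membrane with dystrophin, were lower. SNTB1 encodes beta-1-syntrophin, an adaptor that binds dystrophin and carries signalling proteins. It had 6144 and 6308 normalized counts in resistant libraries and 9621 and 9334 in parental libraries, a log2 fold change of -0.61 (SE 0.03, limma adjusted p = 6.5e-15). DTNA encodes alpha-dystrobrevin, which binds syntrophins and the sarcoglycans. It had 1125 and 1102 normalized counts in resistant libraries and 1908 and 1817 in parental libraries, a log2 fold change of -0.74 (SE 0.05, limma adjusted p = 1.2e-12). The groups were well separated for this pair. The ratio of DTNA to SNTB1 in normalized counts was 0.183 and 0.175 in resistant libraries and 0.198 and 0.195 in parental libraries (exact permutation p = 0.33, the smallest possible), 0.911 times the parental value on average.

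SNTB1 (ENSG00000172164) lies on chromosome 8 from 120535745 to 120813273 and shares 6.36% of its exonic bases with AC104958.2 and 4.32% with MTBP, both on the opposite strand. These are also its nearest measured genes, with log2 fold changes of -0.41 for AC104958.2 and 0.14 for MTBP. No strand setting is given in the sources used here, so reads of those stretches cannot be told apart. The median of the 20 neighbours was -0.01. DTNA (ENSG00000134769) lies on chromosome 18 from 34493290 to 34891844, between HNRNPA1P7 at 0.52 and MAPRE2 at -0.09, with a neighbour median of 0.11.

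**Figure D3:**
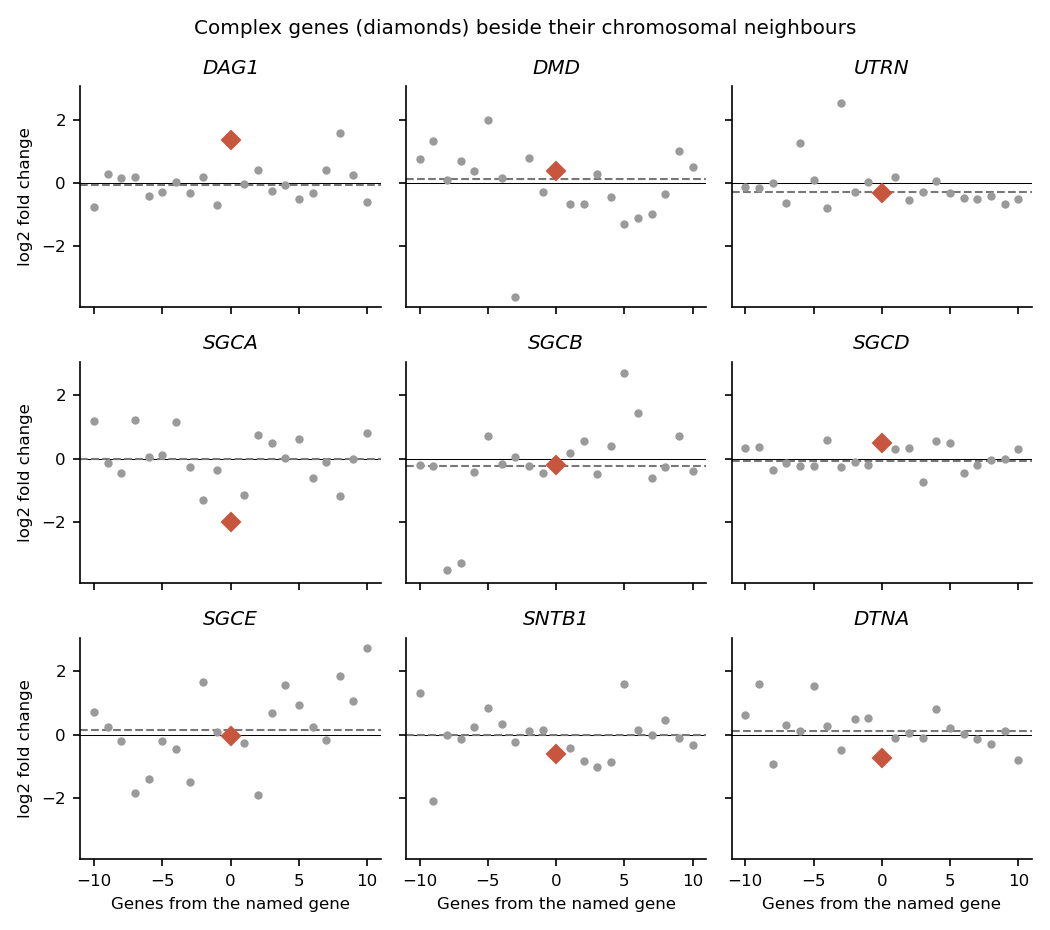
Log2 fold change of resistant over parental cells (vertical axis) for each complex gene (diamond) and the 10 measured genes on each side, ordered by start along the chromosome (horizontal axis); the dashed line is the median of the neighbours. DAG1 and SGCA stand away from medians of -0.05 and 0.00, while UTRN and SGCB lie on medians of -0.29 and -0.21.

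Levels of different genes were compared as RPKM, reads per kilobase of annotated exons scaled to library depth. In resistant cells DAG1 came first at 55.4 ± 1.09 (SD, n = 2 here and below), followed by SGCB at 20.8 ± 0.763, SNTB1 at 14.2 ± 0.183, SGCA at 10.7 ± 0.689, UTRN at 8.89 ± 0.045 and SGCD at 6.46 ± 0.197. DMD at 2.56 ± 0.026, SGCE at 1.95 ± 0.032 and DTNA at 1.38 ± 0.028 were the lowest. In parental cells SGCA came first at 41.4 ± 1.49, then SGCB at 23.3 ± 0.037, DAG1 at 21.2 ± 0.253, SNTB1 at 21.1 ± 0.449, UTRN at 10.7 ± 0.188 and SGCD at 4.50 ± 0.074. DTNA at 2.25 ± 0.077, SGCE at 1.96 ± 0.030 and DMD at 1.92 ± 0.044 closed the order. In parental cells, the libraries of DAG1 and SNTB1 overlapped, as did those of SGCE and DMD. All other neighbours in either order were separate. The levels and part of the order depend on the length used. With the longest coding transcript in place of all exons, the parental order after SGCA (69.2 and 72.8) became SNTB1 (28.5 and 27.6), DAG1 (25.38 and 24.95) and SGCB (23.9 in both libraries). In resistant cells DAG1 and SGCB stayed first, and SGCA at 17.5 and 19.1 overlapped with SNTB1 at 18.7 and 19.0. DTNA had 2.71 and 2.63 in resistant libraries and 4.47 and 4.26 in parental libraries. SGCE moved most, since all its annotated exons span 20884 bases and its longest coding transcript 3474 bases, and per kilobase of that transcript it had 11.9 and 11.6 in resistant and 11.7 and 11.9 in parental libraries.

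All 9 genes together took 0.0905 and 0.0909% of the reads in resistant libraries and 0.0808 and 0.0809% in parental libraries. Without DAG1, the share was lower in resistant cells, with 0.0526 and 0.0519% in resistant libraries and 0.0660 and 0.0664% in parental libraries. Both comparisons gave p = 0.33 in the exact permutation test, the smallest possible.

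The remaining components of the complex are mostly relatives of the genes above. Of 9 such genes 6 were tested, and 1 was higher and 3 lower in resistant cells. The share called was 66.7%, close to the 66.9% of all tested genes. Of the 6 tested genes, 4 are described here. SNTB2, the gene of beta-2-syntrophin, had 1755 and 1559 in resistant libraries and 2025 and 1969 in parental libraries (log2 fold change -0.27, limma adjusted p = 6.5e-05). By contrast, SNTG1 was higher. This gamma-1-syntrophin gene, known mainly from neurons, had 308 and 324 normalized counts in resistant libraries and 55.1 and 63.6 in parental libraries (log2 fold change 2.40, SE 0.14, limma adjusted p = 4.5e-14).

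DRP2, the gene of a dystrophin-related protein of Schwann cells, was lower, with 121 and 135 normalized counts in resistant libraries and 263 and 222 in parental libraries (log2 fold change -0.91, SE 0.13, limma adjusted p = 9.0e-07). DTNB, the beta-dystrobrevin gene, had 664 and 747 in resistant libraries and 771 and 728 in parental libraries, overlapping values with a log2 fold change of -0.09 (limma adjusted p = 0.291). It passed as lower, at -0.17, when resistant replicate 2 was left out (limma adjusted p = 0.0357). SGCZ, SSPN and SNTG2 were not analysed here.

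**Figure D4:**
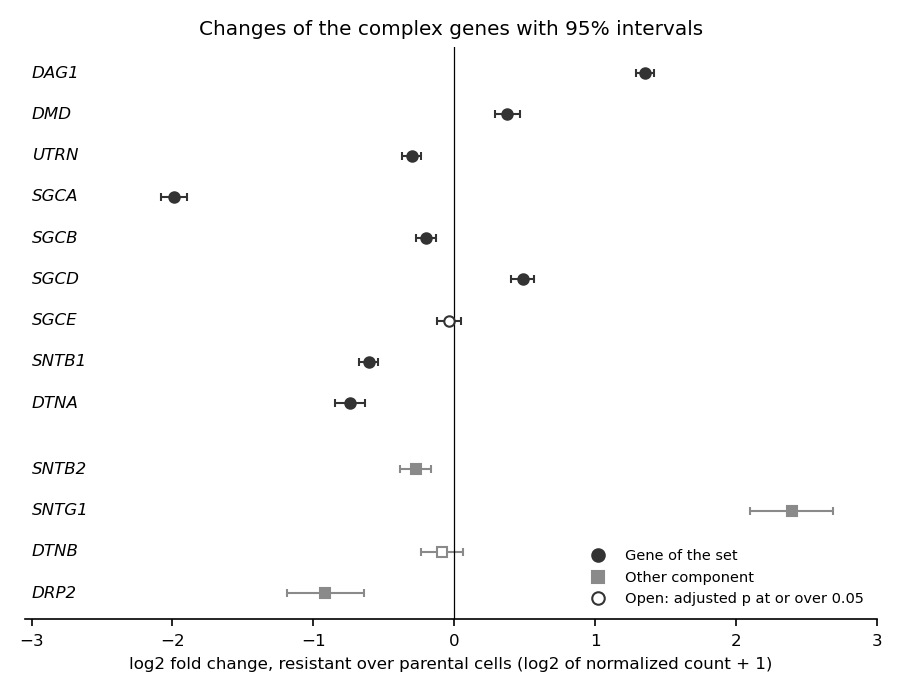
Log2 fold change of resistant over parental cells (horizontal axis) with 95% intervals from limma for the 9 complex genes (circles) and 4 other components (squares); open symbols did not pass an adjusted p of 0.05. DAG1 (1.35), SNTG1 (2.40) and SGCA (-1.99) lie farthest from 0.

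Dystroglycan binds laminin only after its sugar chain has been built. Of 18 genes of this pathway, 7 were higher, 8 lower and 3 did not pass. Of all tested genes 32.7% were higher and 34.2% lower. The median log2 fold change of the 18 was -0.12, against 0.00 for all tested genes. Against a 1.2-fold change 9 of the 18 were called, 4 of them lower, and 37.1% of all tested genes. LARGE2, which encodes a glycosyltransferase of the chain, rose by 1.07 (SE 0.09), and RXYLT1, which adds a xylose to it, by 0.67 (SE 0.04). RXYLT1 shares 17.5% of its exonic bases with an antisense gene. DPM3 (-0.90, SE 0.07), a subunit of the enzyme that makes dolichol-phosphate mannose, and POMT1 (-0.69, SE 0.05), which starts the chain with mannose, fell. POMGNT1, the most abundant gene of the pathway in normalized counts averaged over all 4 libraries, though not within either group, fell by 0.24 (SE 0.04). The called genes of the pathway moved in both directions, as did those of all tested genes.

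Genes of the matrix ligands of dystroglycan were mostly higher. Of 13 tested, 9 rose, 2 fell and 2 did not pass, with a median log2 fold change of 0.58. Of all tested genes 32.7% rose and 34.2% fell. All 4 laminin alpha chain genes on the list, whose products carry the dystroglycan-binding domains, were higher. This group of 4 was not planned and was formed after the values were seen. LAMA4 had 38697 and 38462 normalized counts in resistant libraries and 12590 and 12892 in parental libraries (log2 fold change 1.60, SE 0.03, limma adjusted p = 1.4e-25). LAMA1 had 451 and 427 in resistant libraries and 41.6 and 46.7 in parental libraries (log2 fold change 3.29, SE 0.14, limma adjusted p = 3.6e-17). LAMA2, the chain of the muscle basement membrane, rose by 0.58 and LAMA5 by 0.82, both chosen after their values were seen. NRXN2, a neurexin gene, rose by 3.05 (SE 0.16). HSPG2, the gene of perlecan (-0.31, SE 0.04), and LAMB2 (-0.19, SE 0.04) fell. HSPG2 shares 11.7% of its exonic bases with LDLRAD2 and LAMA1 10.3% with an antisense gene.

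Averaged over all 4 libraries, the most abundant gene of the ligand list in normalized counts was LAMC1, although LAMB1, at 76763 and 76949, was above it in resistant cells. LAMC1, which encodes the gamma chain common to most laminins, had 74744 and 75956 in resistant libraries and 75397 and 74990 in parental libraries. These values overlapped (log2 fold change 0.00, SE 0.03, limma adjusted p = 0.927). EGFLAM, the gene of pikachurin, was called higher at 0.11, and it lost the call without resistant replicate 1 (limma adjusted p = 0.0808), parental replicate 1 (0.133) or parental replicate 2 (0.151), and with DESeq2 (0.0744).

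**Figure D5:**
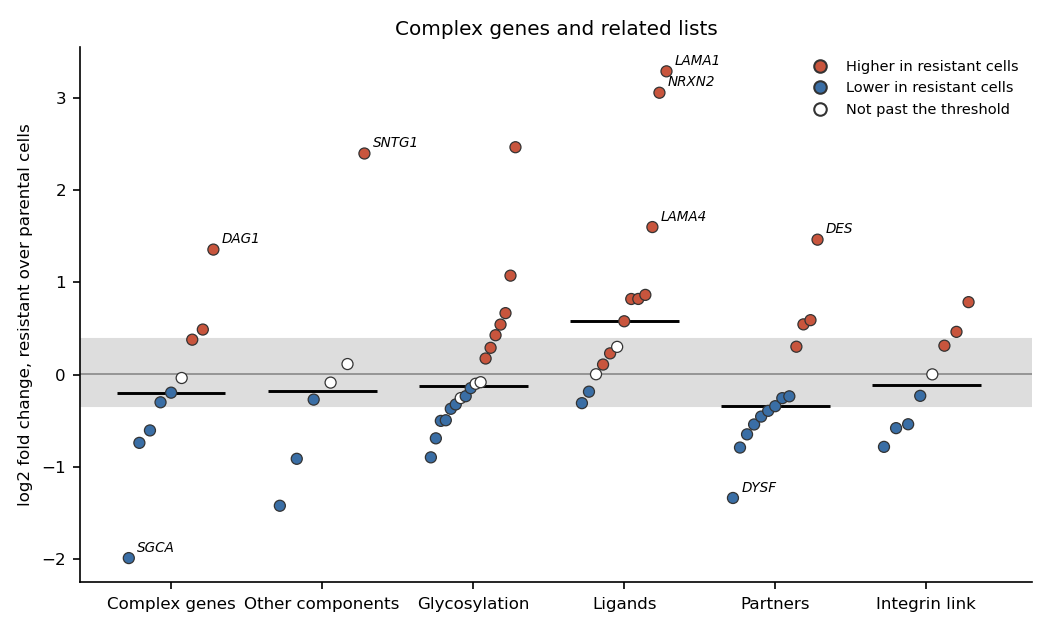
Log2 fold change of resistant over parental cells (vertical axis) for each tested gene of the complex and of 5 related lists (horizontal axis), with some of the genes labelled; red points were called higher, blue ones lower and open ones not called, black bars are list medians, and the grey band holds the middle of all tested genes from -0.34 to 0.38. The ligand list has a median of 0.58 and the list of membrane and filament partners one of -0.34.

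Partners of the complex at the membrane and its links to filaments were mostly lower, with 4 higher and 9 lower of 13 tested and a median log2 fold change of -0.34. Among all tested genes 32.7% were higher and 34.2% lower. Against a 1.2-fold change, 1 partner gene was higher and 5 were lower, so that most of the list was no longer called. Of all tested genes, 37.1% were called at that threshold. DYSF, the membrane repair gene of dysferlin, had 9756 and 9960 normalized counts in resistant libraries and 25023 and 24825 in parental libraries (log2 fold change -1.34, SE 0.03, limma adjusted p = 1.2e-23). PLEC, the gene of the linker plectin (-0.79, SE 0.03), CAVIN1, a coat protein gene of caveolae (-0.65, SE 0.03), and the most abundant gene of the list, ACTB (-0.46, SE 0.03), fell as well. DES, the gene of the muscle filament protein desmin, rose by 1.46 (SE 0.03). CAV3, the muscle caveolin gene, rose by 0.54 (SE 0.15) from low counts, with 153 and 142 in resistant and 92.8 and 109 in parental libraries. ANK3 was called higher at 0.59 (SE 0.20) and lost the call without resistant replicate 2 (limma adjusted p = 0.116) or parental replicate 2 (0.0972), and with DESeq2 (0.0879). NOS1 was not analysed here, and CAPN3 was too low to be tested.

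Integrin alpha-7 beta-1 is the other laminin receptor of muscle. ITGA7, its muscle-specific chain, had 4490 and 4534 normalized counts in resistant libraries and 2650 and 2588 in parental libraries (log2 fold change 0.78, SE 0.04, limma adjusted p = 7.9e-16). ITGB1, the common beta chain, had 17451 and 17286 in resistant libraries and 30052 and 29764 in parental libraries (log2 fold change -0.78, SE 0.03, limma adjusted p = 4.5e-19). The chains of this receptor thus changed in opposite directions. Of the 8 genes of the integrin link 3 were higher, 4 lower and 1 not called. Among all tested genes 66.9% were called, 32.7% higher and 34.2% lower. VCL, the gene of vinculin and the most abundant of the list, rose by 0.46 and PXN, the gene of paxillin, by 0.31. Genes on the opposite strand share 11.1% of the exonic bases of VCL (AP3M1) and 12.3% of those of PXN (PXN-AS1). ILK (-0.58) and TLN1 (-0.54), the gene of talin-1, fell. ILK shares 68.1% of its exonic bases with TAF10 on the opposite strand, and its value is uncertain for that reason.

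The changes of DAG1, SGCA, DTNA, SNTB1, SGCD and DMD passed under every alternative listed in the closing section. When a change above 1.2-fold was required, which 37.1% of all tested genes met, UTRN (limma adjusted p = 0.264) and SGCB (limma adjusted p = 1.00) no longer passed. A larger assumed spread between replicates, an edgeR dispersion of 0.01, left 43.3% of all genes called, and these genes were lost again (edgeR adjusted p = 0.0829 for UTRN and 0.288 for SGCB).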

How the data were processed

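Poly(A)-enriched RNA of 4 RD libraries was analysed, 2 vincristine-resistant and 2 parental, grouped by the sample titles, with table columns matched by name. The submitters' processing notes name STAR 2.5.2b, bcl2fastq 2.17, featureCounts (Subread 1.5.2), DESeq2 and the build GRCh38. No annotation or strand setting is named there. The authors deposited a signal of normalized counts, gene counts divided by 1 size factor per library (0.924 and 1.05 resistant, 1.03 and 1.01 parental). Dividing each column by the worth of 1 read gave whole reads within 0.01 for 100% of values. Library totals cover the genes of the table alone. The deposited log2 column gives the authors' fold change, resistant over parental, and the deposited p-values are those of the authors' test. The authors' deposited table gives SGCE an adjusted p of 0.606 and calls the other 8 genes in the directions reported.

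The 18330 genes that reached 10 in 2 or more libraries were fitted with limma 3.58.1 on log2(value + 1) with an intensity trend and group alone, adjusted by Benjamini-Hochberg over all of them. The log2 scale with a pseudocount can understate the change of low genes. Alternatives used edgeR 4.0.16, DESeq2 1.42.0 and limma voom on recovered reads in R 4.3.3. Single values per library were compared by exact permutation. Positions and exon lengths came from GENCODE 29, which held 96.9% of the identifiers.

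The members, lists and tests were chosen with earlier results of these data known. The text names the 9 members, every tested gene of the other components, up to 3 called genes with the largest and 3 with the smallest fold change and the most abundant gene of each other list, the nearest measured genes on the chromosome, and the 3 genes with the most similar profile to the members that changed most. A gene named outside this rule is marked. Some genes that this rule picks are not reported here, though the list counts and medians include them.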

Additional observations from a re-analysis of the deposited data

How the results depend on the processing

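The counts of called complex genes (3 higher, 5 lower) held with other pseudocounts, filters, scaling to the same total, edgeR, DESeq2 and limma voom, and without each library in turn. Over all settings the log2 fold change was between 1.33 and 1.39 for DAG1 and between -2.06 and -1.92 for SGCA. Calls over all genes ranged from 10701 to 11883 without 1 library, against 12271 with all 4. Against a 1.2-fold change 6794 genes were called, 3380 higher and 3414 lower, and with the dispersion fixed at 0.01 there were 7943, of which 3880 were lower. In both settings 3 complex genes were called lower, because UTRN (-0.30 in each) and SGCB (-0.20 against 1.2-fold, -0.19 with the fixed dispersion) no longer passed. Against 1.2-fold, 9 glycosylation genes (4 lower), 7 ligand genes and 6 partner genes (1 higher, 5 lower) were called. The fixed dispersion left 5 glycosylation genes lower and 7 ligand genes called. In limma treat and in edgeR with the fixed dispersion 0 ligand genes were lower, with 0 and 1 at an unadjusted p under 0.05, against 2 lower with limma. Among other list genes, 43 single results lost a call and 5 gained one, while 820 kept call and direction. Of the gains, POMGNT2 and DOLK were called lower without resistant replicate 2, and POMK without resistant replicate 1 or with a filter at 50. Titles give both groups replicate numbers 1 and 2, but the deviations of same-numbered libraries had a correlation of -0.00397 over 13130 genes and no label pairs them. With the replicate number as a block, 12144 genes were called and the complex genes kept 3 higher and 5 lower. Levels per kilobase of the longest coding transcript, given in the report, are a setting chosen after seeing the data. With 2 libraries a group and a common coefficient of variation of 2.38% between replicates, small changes pass that separate cultures might not show.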

Other observations

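Profiles most like those of the extreme members were searched among 11916 other protein-coding genes with a mean of at least 100 normalized counts, by Euclidean distance between log2 values centred over the 4 libraries. With 2 groups of 2 libraries this measure mostly picks genes with a like fold change. Nearest to DAG1 were STAC3, a gene of excitation-contraction coupling in skeletal muscle (distance 0.020, log2 fold change 1.34), SFR1, a gene of DNA recombination (0.025, 1.36), and CHRND, the delta subunit gene of the muscle acetylcholine receptor (0.029, 1.34). STAC3 had 11306 and 11744 normalized counts in resistant libraries and 4621 and 4483 in parental libraries, and CHRND had 19197 and 19437 in resistant libraries and 7730 and 7541 in parental libraries.

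Nearest to SGCA were CFAP61, a gene of cilia and flagella (distance 0.049), CBFA2T3, a transcriptional corepressor gene (0.056, log2 fold change -1.96), and EN2, a homeobox gene (0.059, -2.04). EN2 had 492 and 548 normalized counts in resistant libraries and 2117 and 2159 in parental libraries. These genes lie on chromosomes 20, 16 and 7, and none is on chromosome 17 with SGCA.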
